A study of Mus musculus with 2 samples.

Results

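The kinesin motor family was examined in regulatory T (Treg) cells, a CD4 T cell type that holds immune responses in check, sorted from mouse spleen and measured by RNA sequencing. Its members were all genes listed in either library whose symbol starts with Kif followed by a digit or c. This rule found 41 of 23248 listed genes, of which 40 encode motors and 1, Kif16bos, is an antisense RNA of the Kif16b locus. By textbook role, 13 of the motors were placed among the mitotic kinesins, 16 among the transport kinesins and 11 among other kinesins, which regulate microtubules or cilia or have less settled roles.

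The healthy group was 1 library of CD4+ FOXP3-GFP+ cells from mice injected with phosphate-buffered saline, and the acute myeloid leukemia group (leukemia below) was 1 library of cells sorted the same way at day 18 after transplantation of 800000 leukemia cells without irradiation. All mice, aged 6 to 8 weeks, were on a B6.129(Cg) background and carried the allele Foxp3tm3(DTR/GFP)Ayr, in which the Foxp3 gene drives a diphtheria toxin receptor and green fluorescent protein (GFP). Mice with leukemia survived 30 to 40 days. The hosts of the leukemia were not irradiated, so their own blood-forming cells were not removed by that step. The leukemia cells are not described further in the labels. Whether cells of several mice were pooled is not stated. With 1 library per group there is no replicate check, and every value below compares these libraries and not the conditions.

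Kinesins are ATP-driven motors that walk along microtubules or take them apart at their ends. Transport kinesins carry vesicles, mitochondria and other cargo through the cytoplasm at all times. Mitotic kinesins are made mainly by dividing cells, in which they push spindle poles apart, move and align chromosomes, and build the midzone where the daughter cells separate. In T cells, microtubules also bring the centrosome and secretory granules to the contact with another cell.

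Levels are given in FPKM, fragments per kilobase of transcript, relative to the library's total. The difference is log2((FPKM leukemia + 1) / (FPKM healthy + 1)). Adding 1 shrinks the ratios of low genes. A gene at 1 FPKM or more in either library was called 2-fold higher where this log2 ratio reached 1, and 2-fold lower where it reached -1, with no test behind the call. The read ratio is the leukemia read count over the healthy one, each divided by its library's total, with an exact 95% interval that covers counting error only. The libraries held 8929601 (healthy) and 8897162 (leukemia) estimated reads. Of all 13717 genes at 1 FPKM or more, 6.55% were 2-fold higher in leukemia and 1.95% were 2-fold lower, and the median log2 ratio was 0.02.

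The sort markers were present in both libraries, with Foxp3 at 104 and 62.7 FPKM in healthy and leukemia, and Cd4 at 267 and 184 FPKM. Markers of some other cells differed between the libraries, most in the immature myeloid and macrophage lists. The 16 listed genes of immature myeloid and progenitor cells summed to 138 FPKM in healthy and 1889 FPKM in leukemia. Of them, 15 were 2-fold higher, against 6.55% of all genes tested. The 18 T cell receptor signalling genes summed to 4345 and 3128 FPKM, with all 18 below 0 and none past 2-fold, and the 12 Treg identity genes to 1447 and 1168 FPKM. Macrophage genes (10) summed to 978 and 545 FPKM, erythroid genes (9) to 171 and 185 FPKM, natural killer and CD8 T cell genes (8) to 48.8 and 38.2 FPKM, B cell genes (9) to 17.1 and 28.6 FPKM, and megakaryocyte genes (6) to 14.2 and 10.5 FPKM. No gene of these lists was listed at 0 in either library. In bulk RNA, fewer cells of a type and less RNA per cell cannot be told apart, and the part of these other cells in the kinesin values was not tested.

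The family split by class. All 13 listed mitotic kinesins had a log2 ratio above 0, 7 of them were 2-fold higher in leukemia and none was lower, against a background of 6.55% higher among all genes tested. Their summed level was 54.3 FPKM in healthy and 124 FPKM in leukemia. Of 16 transport kinesins, 13 reached 1 FPKM, and among these 1 was 2-fold higher and none lower. In a class of this size that is near the 6.55% higher and 1.95% lower among all genes tested. The summed levels over all 16 transport kinesins were 100.4 FPKM in healthy and 90.6 FPKM in leukemia. The mitotic class made up 22.5% of the summed kinesin FPKM in healthy and 44.5% in leukemia, the transport class 41.5% and 32.5%, and the other kinesins 36.0% and 22.9%. The median log2 ratio was 1.07 over mitotic and -0.10 over transport kinesins. After centring the libraries on the T cell receptor signalling genes, which puts the median of all genes at 0.45, these medians were 1.48 and 0.29, so that the sign of the transport median depends on the scaling. Over the whole family the summed level was 242 FPKM in healthy and 279 FPKM in leukemia. The summed reads, in which long transcripts such as Kif21b weigh more, were 13031 and 12884, a ratio of 0.992 (0.968 to 1.02).

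**Figure D1:**
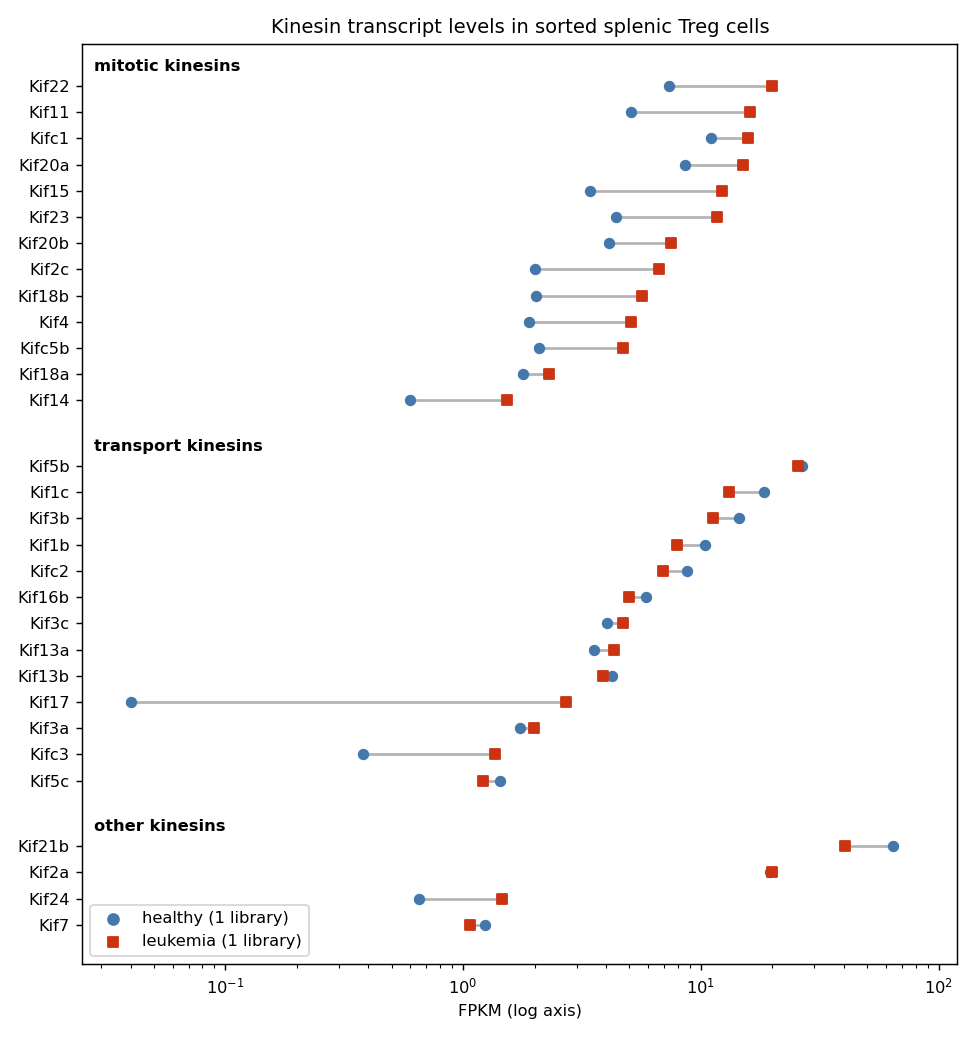
FPKM (log axis) of the 30 kinesins at 1 FPKM or more in either library, with healthy as circles and leukemia as squares, 1 library each. All 13 mitotic kinesins lie further right in leukemia, while the transport kinesins stay close together except Kif17 and Kifc3, and Kif21b, the most abundant, goes from 64.3 FPKM (healthy) to 40.3 FPKM (leukemia).

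Roles within the mitotic class were drawn after the values were seen, and sets of 4 or 5 genes do not rank the roles. Of the motors that set up a bipolar spindle, 2 of 4 were 2-fold higher, against 6.55% of all genes tested. These had the highest log2 ratios of the class. Kif11 (NCBI Gene 16551), the plus-end motor that slides spindle poles apart, stood at 5.07 FPKM on 222 reads in healthy and 16.1 FPKM on 702 reads in leukemia. Its read ratio was 3.17 (2.73 to 3.71). Kif15 (209737), which can share the work of Kif11 in keeping poles apart, was at 3.43 FPKM (140 reads) in healthy and 12.3 FPKM (504 reads) in leukemia. It had the highest read ratio among mitotic kinesins, 3.61 (2.99 to 4.39), and only 2.74% of all genes tested had a higher log2 ratio. Tpx2, a spindle assembly factor that binds both motors, was at 5.11 and 17.6 FPKM, a read ratio of 3.40 (2.83 to 4.11), inside the interval of Kif15 and of Kif11. Kifc1 (100502766), a minus-end motor that pulls poles together and bundles microtubules, was less different, at 11.0 and 15.7 FPKM on 198 and 305 reads, a read ratio of 1.55 (1.29 to 1.86). Its copy Kifc5b (16580) was at 2.09 and 4.72 FPKM on 49 and 111 reads, a read ratio of 2.27 (1.61 to 3.25).

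Values of that pair are uncertain singly, because reads of near-identical genes are shared out by estimate. Transcript models of Kifc1 and Kifc5b in GENCODE M21 aligned over 2333 columns with 96.5% identity and an identical run of 268 bases. Summed, the pair was at 13.1 and 20.4 FPKM in healthy and leukemia, a log2 ratio of 0.60, under 2-fold. The deposited gene length of Kifc1 also differed, 2003 bases in healthy and 2173 in leukemia, so its FPKM ratio of 1.42 is lower than its read ratio.

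Motors that act on chromosomes and microtubule ends were 2-fold higher in 4 of 5 listed members, against 6.55% of all genes tested. Kif22 (110033), the chromosome-bound motor that pushes chromosome arms to the equator, had the highest level of any mitotic kinesin in leukemia, at 7.34 FPKM on 137 reads in healthy and 19.8 FPKM on 369 reads in leukemia. The read ratio was 2.70 (2.22 to 3.31). Kif4 (16571), which binds chromosome arms and the midzone, was at 1.90 and 5.07 FPKM on 80 and 212 reads, a ratio of 2.66 (2.05 to 3.48), and its log2 ratio of 1.07 lay just past the threshold. Kif2c (73804), which takes microtubules apart at kinetochores to correct wrong attachments, was at 2.0 and 6.64 FPKM on 51 and 169 reads, a ratio of 3.33 (2.42 to 4.64). Kif18b (70218), which trims microtubules that reach the cell cortex, was at 2.02 and 5.66 FPKM on 61 and 170 reads, a ratio of 2.80 (2.08 to 3.81). Kif18a (228421), the motor that damps chromosome movement at the equator, was the exception, at 1.78 and 2.29 FPKM on 54 and 70 reads. Its ratio of 1.30 (0.899 to 1.89) had an interval that held 1, the only such case among the 13 mitotic kinesins. Kif18a thus lay below Kif2c and Kif18b with intervals that did not overlap, at similar levels in the healthy library. Kif2b, another microtubule depolymerase of mitosis, was not listed in either library.

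Of the motors of the midzone and of cytokinesis, 1 of 4 was 2-fold higher, against 6.55% of all genes tested. Kif23 (71819), which with Racgap1 forms the centralspindlin complex that marks the division plane, was at 4.40 FPKM (129 reads) in healthy and 11.7 FPKM (355 reads) in leukemia, a read ratio of 2.76 (2.25 to 3.41). Racgap1 was at 11.4 and 22.4 FPKM, a ratio of 1.95 (1.69 to 2.25), and the intervals of these partners did not overlap, although the gap is lost in rounding. Kif20a (19348), which carries the Aurora B complex to the midzone, was at 8.54 and 15.1 FPKM on 268 and 471 reads, a ratio of 1.76 (1.52 to 2.06). Aurkb, the kinase of that complex, was at 4.12 and 18.8 FPKM, a ratio of 4.61 (3.57 to 6.04), above Kif20a with intervals that did not overlap. Incenp, the scaffold of the same complex, named after its value was seen, was at 20.4 and 33.9 FPKM, a ratio of 1.66 (1.5 to 1.85), with an interval that overlapped that of Kif20a. Kif20b (240641), a relative of Kif20a used in the completion of cytokinesis, was at 4.10 and 7.46 FPKM on 174 and 306 reads, a ratio of 1.77 (1.46 to 2.14). Kif14 (381293), which brings the kinase encoded by Cit to the midbody, was at 0.60 and 1.53 FPKM on 40 and 112 reads. Its read ratio of 2.81 (1.94 to 4.14) was past 2 although its log2 ratio on the FPKM + 1 scale was 0.66, and it reached 1 FPKM in leukemia alone. Cit, named after its value was seen, was at 0.58 and 2.30 FPKM, a ratio of 3.78 (2.67 to 5.44).

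By the read ratio instead of log2(FPKM + 1), 9 of the 13 mitotic kinesins were at 2 or more with an interval above 1, against 8.43% of all genes tested. None was at 0.5 or less, against 2.46% of all genes, and 12 of 13 had an interval above 1, against 29% of all genes. Kif15 and Kif11 had intervals wholly above those of Kif20a, Kif20b, Kifc1 and Kif18a, so that ratios within the class differed by more than counting error. Reads of some genes may include those of a neighbour, since it is not given whether counting used the strand. In GENCODE M21, Kif20a shares 1271 exonic bases with Cdc23 on the other strand (545 and 535 reads in healthy and leukemia) and Kif4 shares 832 with Pdzd11 (205 and 264 reads).

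**Figure D2:**
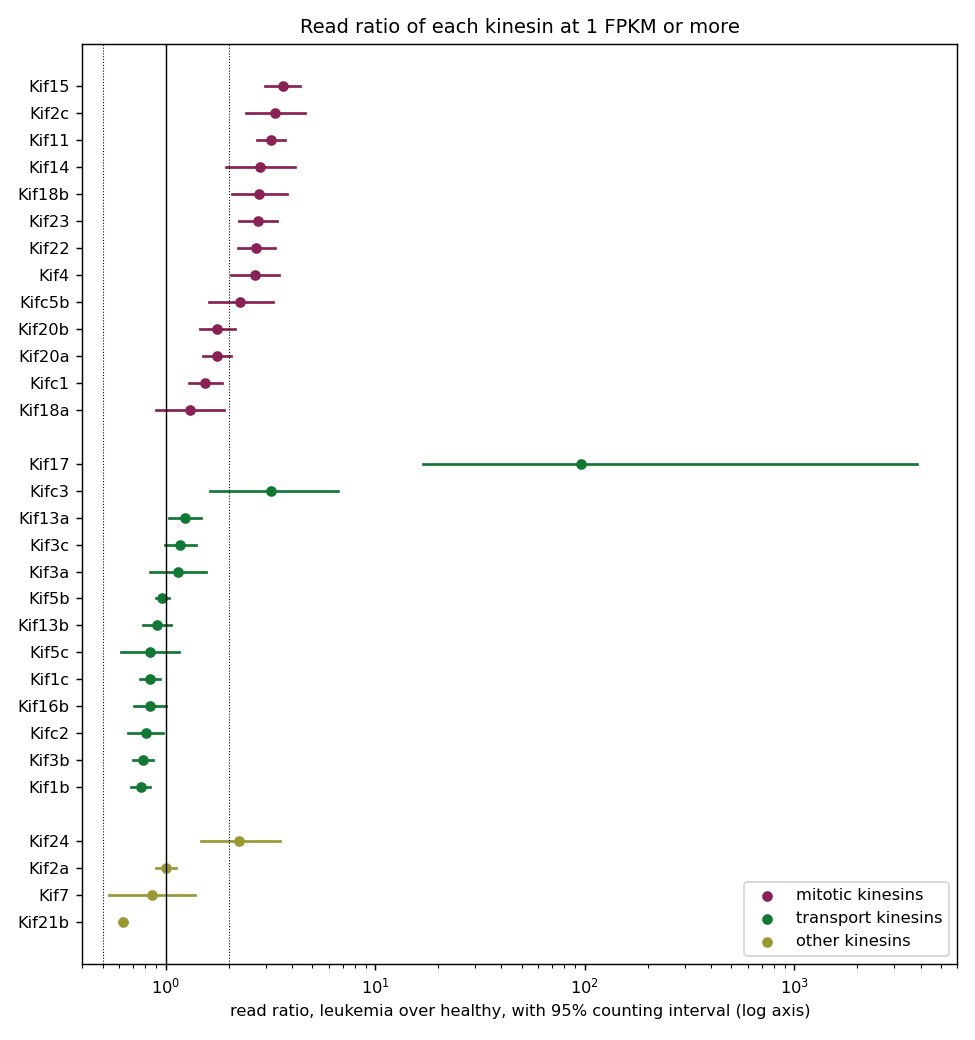
Read ratio of leukemia over healthy (log axis) with its exact 95% counting interval for the 30 kinesins at 1 FPKM or more, with dotted lines at ratios of 0.5 and 2. Mitotic kinesins run from 1.30 (Kif18a) to 3.61 (Kif15), most transport kinesins lie between 0.760 and 1.24, and Kif17 has a ratio of 96.3 with a wide interval because it rests on 1 healthy read.

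The promoters of the mitotic kinesins were read because their transcripts differed in the same direction. Windows of 250 bases before to 50 after the transcript start, from the RefSeq table of build GRCm38.p6, were held for 13 mitotic (with the unlisted Kif2b, without Kif20a), 10 transport and 10 other kinesin genes. They were searched on both strands for the cell cycle genes homology region (CHR, TTTGAA or TTCGAA), an element through which late cell cycle genes are repressed in resting cells, for the CCAAT box bound by NF-Y, and for an E2F-like site (TTTNNCGC). TTCGAA reads the same on both strands, and a match is a description of letters and not a bound site. Stretches of Kif11 and Kif15 are shown because they hold a CHR just before the start in the members with the highest log2 ratios, those of Kifc1 and Kifc5b because these are near-identical copies, and those of the transport kinesins Kif17 and Kif3c for contrast. Stretches were trimmed to bases outside all GENCODE M21 exons, except at Kif15, whose 30 printed bases precede the RefSeq start but lie in the first exon of a GENCODE transcript that starts further upstream. Each is on the strand of its gene, 5′ to 3′, and capitals mark matches, in which ATTGG is the CCAAT box, TTCAAA the CHR and the first capitals of Kif15 the E2F-like site, all read on the other strand.
Kif11, chr19:37376282-37376381, plus strand: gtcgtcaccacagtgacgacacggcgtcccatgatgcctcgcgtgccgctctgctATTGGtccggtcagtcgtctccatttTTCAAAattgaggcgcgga
Kif15, chr9:122951051-122951080, plus strand: gggGCGCCAAATTCAAAtctgcggccatct
Kifc1, chr17:33890662-33890733, minus strand: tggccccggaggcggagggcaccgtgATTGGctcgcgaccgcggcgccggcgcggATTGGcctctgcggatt
Kifc5b, chr17:26916991-26917090, plus strand: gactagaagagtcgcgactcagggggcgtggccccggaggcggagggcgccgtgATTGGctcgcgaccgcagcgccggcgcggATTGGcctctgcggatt
Kif17, chr4:138262151-138262231, plus strand: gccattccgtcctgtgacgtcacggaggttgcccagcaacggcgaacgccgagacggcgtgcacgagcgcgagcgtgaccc
Kif3c, chr12:3365032-3365131, plus strand: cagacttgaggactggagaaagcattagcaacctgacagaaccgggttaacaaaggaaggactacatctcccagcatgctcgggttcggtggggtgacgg

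A CHR match was present in 11 of 13 mitotic kinesin promoters (84.6%), against 1 of 10 transport kinesins (10.0%), 3 of 10 other kinesins (30.0%) and 17.5% of the 10360 genes at 1 FPKM or more with a window. Over all 27025 genes of the table the share was 21.7%. The matches clustered at the start: 9 of the 13 mitotic genes had one within 50 bases before to 50 after it, against 4.69% of genes at 1 FPKM or more. In Kif11 the CHR covered positions -19 to -14, counted from the transcript start, with a CCAAT box at -45 to -41. In Kif15 it covered -19 to -14 next to an E2F-like site at -27 to -20, without overlap. Kif15 held a further CHR match at -234 to -229. The CCAAT box was in 9 of 13 mitotic promoters (69.2%), 3 of 10 transport kinesins, 4 of 10 other kinesins and 43.3% of genes at 1 FPKM or more. A CHR and a CCAAT box were together in 8 of 13 mitotic promoters, 0 of 10 transport kinesins, 3 of 10 other kinesins and 7.36% of genes at 1 FPKM or more. The E2F-like site was in 2 of 13, Kif15 and Kif18a, against 9.53%. Kif18a, the mitotic kinesin with the lowest read ratio, was 1 of the 2 mitotic genes with no CHR letters in this window. Kif2b, which had no reads listed, was the other. Kifc1 and Kif20b, with low read ratios of 1.55 and 1.77, held a CHR just after the start. Kif2c and Kif14, with read ratios of 3.33 and 2.81, held one only further out, at -103 to -98 and at -228 to -223. Whether a CHR goes with the read ratio was not tested. The Kifc1 stretch and the end of the Kifc5b stretch were identical at 70 of 72 bases, with both CCAAT boxes in each, and their CHR matches lay after the printed bases, at 2 to 7 and 30 to 35. The spindle and cytokinesis partner genes, a list without kinesin symbols, had a CHR in 11 of 17 windows (64.7%). The transport kinesins Kif17 and Kif3c held none of the 3 motifs in the window.

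**Figure D3:**
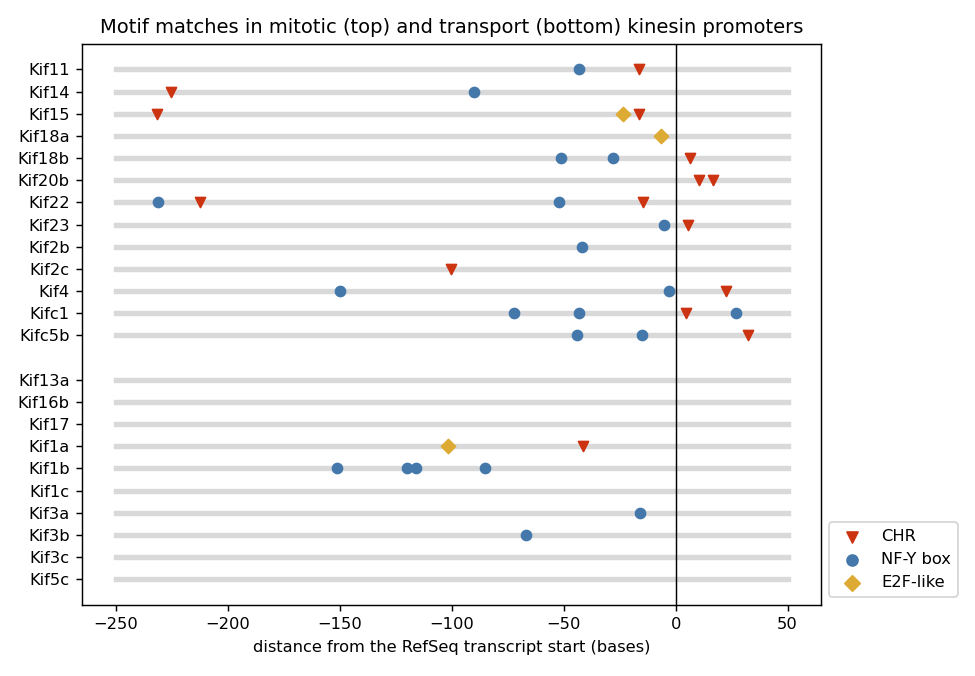
Positions of motif matches on either strand in the promoter windows of mitotic (top) and transport (bottom) kinesins, as distance in bases from the RefSeq transcript start. Triangles (CHR) lie near the start in most mitotic genes, 9 of 13 having one within 50 bases of it, and in 1 of 10 transport genes (Kif1a); matches of both windows are drawn for Kif1a and Kif1b.

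Among transport kinesins, the ubiquitous conventional kinesin heavy chain Kif5b (16573) was the most abundant, at 26.7 FPKM on 1455 reads in healthy and 25.7 FPKM on 1400 reads in leukemia. Its read ratio of 0.966 (0.897 to 1.04) had an interval that held 1. Its neuronal relatives were low, with Kif5c at 1.43 and 1.21 FPKM and Kif5a at 0.23 and 0.44 FPKM. The light chains that join Kif5 motors to cargo were present without a difference past 2-fold, with Klc1 at 28.5 and 28.6 FPKM, a ratio of 1.02 (0.914 to 1.15), and Klc2 at 10.3 and 9.49 FPKM, a ratio of 0.925 (0.779 to 1.10).

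The heterotrimeric kinesin that serves cilia and late endosomes joins Kif3a with Kif3b or Kif3c and the adaptor Kifap3. Per length, Kif3b (16569) was far above its partners, at 14.5 and 11.3 FPKM in healthy and leukemia, while Kif3a was at 1.73 and 1.98 FPKM, Kif3c at 4.01 and 4.72 FPKM and Kifap3 at 2.01 and 2.94 FPKM. The Kif3b read ratio was 0.778 (0.696 to 0.868), although its log2 ratio was above 0 after centring on T cell genes, that of Kif3a 1.15 (0.847 to 1.55) and that of Kif3c 1.18 (0.991 to 1.40). Kifap3 had a ratio of 1.47 (1.08 to 2.02) on 71 and 104 reads. Reads of Kif3c may include those of 1110002L01Rik, which shares 2617 exonic bases with it on the other strand and had 137 and 183 reads.

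Vesicle motors of the Kif1 group, which carry lysosomes, synaptic vesicle precursors and integrins, had read ratios under 1, although Kif1b lay above 0 after centring on T cell genes. Kif1b (16561) was at 10.4 FPKM (864 reads) in healthy and 7.91 FPKM (654 reads) in leukemia, a read ratio of 0.760 (0.685 to 0.842). Kif1c (16562) was at 18.5 and 13.1 FPKM on 760 and 639 reads. Its read ratio of 0.844 (0.758 to 0.939) was milder than its FPKM ratio of 0.708, because the deposited gene length was 4544 bases in healthy and 5398 in leukemia. Kif16b (16558), an early endosome motor, was at 5.88 and 4.98 FPKM, a ratio of 0.844 (0.710 to 1.00), and Kifc2 (16581), a minus-end motor, at 8.77 and 6.96 FPKM, a ratio of 0.803 (0.662 to 0.973). Kif13a, which moves recycling endosomes, stood at 3.56 and 4.33 FPKM, and Kif13b at 4.23 and 3.87 FPKM. None of these 6 reached 2-fold, and the log2 ratios of Kif1b, Kif3b, Kif16b and Kifc2 were 0.08, 0.11, 0.21 and 0.13 after centring on the T cell genes.

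Kif17 (16559), a motor of dendrites and cilia, was the 1 transport kinesin called 2-fold higher. It had 1 read (0.04 FPKM) in healthy and 96 reads (2.72 FPKM) in leukemia, a read ratio of 96.3 with an interval of 16.9 to 3845, and a log2 ratio of 1.84 that only 1.86% of all genes tested exceeded. The gene Sh2d5, which lies on the same strand and shares 74 exonic bases with Kif17 in GENCODE M21, had 10 and 393 reads in the same libraries. How reads were divided between these neighbours was not tested. Kifc3 (16582), a minus-end motor of cell junctions, had 12 reads (0.38 FPKM) and 38 reads (1.36 FPKM), a read ratio of 3.18 (1.63 to 6.68) and a log2 ratio of 0.77. Both Kif17 and Kifc3, with Kif14 and Kif24, reached 1 FPKM in leukemia alone, no kinesin did so in healthy alone, and 26 did so in both. The share of all genes that did so was not counted, so these counts are not a result about the family. The 16 immature myeloid and progenitor genes had 3646 and 25993 reads in these same libraries. Of these reads, Csf1r, the 1 gene of the list with a log2 ratio below 0, had 2726 and 1737. Whether immature myeloid or progenitor cells gave any of the Kif17 or Kifc3 reads was not tested.

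The most abundant kinesin of either library was Kif21b (16565), a motor that restrains microtubule growth and is known in neurons and T cells. It stood at 64.3 FPKM on 5309 reads in healthy and 40.3 FPKM on 3327 reads in leukemia and made up 26.6% and 14.5% of the summed kinesin FPKM. The read ratio of 0.629 (0.602 to 0.657) was the lowest of the 30 kinesins at 1 FPKM or more, and 4.88% of all genes tested had a lower log2 ratio than its -0.66. The log2 ratio was under 2-fold and lay below the T cell receptor signalling median of -0.48. It was inside the range of those genes, -0.79 to -0.20. After centring on those genes it was -0.19. Kif2a (16563), which takes microtubules apart in neurons and at spindle poles, was level, at 19.6 and 19.9 FPKM on 624 and 625 reads, a ratio of 1.01 (0.898 to 1.12), in contrast to its mitotic relative Kif2c at 3.33 (2.42 to 4.64). Kif2a shares 1229 exonic bases with Dimt1 on the other strand (166 and 123 reads). Kif24 (109242), a centriole protein that limits cilium formation, was at 0.65 and 1.46 FPKM on 33 and 74 reads, a read ratio of 2.25 (1.47 to 3.50), and Kif7, which serves Hedgehog signalling in cilia, at 1.24 and 1.07 FPKM.

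The 11 members under 1 FPKM in both libraries had at most 24 reads and 0.53 FPKM. They were Kif1a, Kif5a, Kif28, Kif6, Kif9, Kif12, Kif19a, Kif21a, Kif26a, Kif27 and the antisense RNA Kif16bos. Of these, 4 were listed in healthy only (Kif12, Kif27, Kif28 and Kif16bos, with 2 reads at most) and Kif6 in leukemia only, with 1 read. Among all 23248 genes, 21319 were listed in healthy and 21559 in leukemia. Kif5a, with 11 and 24 reads, had a read ratio of 2.19 (1.03 to 4.95), and the intervals of the other 10 held 1. Such counts detect only large differences, since 10 reads in each library give an interval of the read ratio from 0.375 to 2.69.

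The order of levels within the family differed in its middle. Kif21b, Kif5b and Kif2a were the first 3 in both libraries. In healthy, Kif1c and Kif3b followed at 18.5 and 14.5 FPKM, while in leukemia the next 4 places were held by the mitotic kinesins Kif22, Kif11, Kifc1 and Kif20a. Kif11 moved from place 12 to 5, Kif22 from 10 to 4 and Kif15 from 18 to 9. The neighbours Kif2a and Kif22 in leukemia were at 19.9 and 19.8 FPKM, and Kif11, Kifc1 and Kif20a at 16.1, 15.7 and 15.1 FPKM, differences too small to order with 1 library.

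Lists of genes that work with the motors were set beside the classes. Of 20 spindle and cytokinesis partners, 12 were 2-fold higher and 0 lower, against 6.55% and 1.95% of all genes tested, and their median log2 ratio was 1.04, close to the 1.07 of the mitotic kinesins. The largest were Aurkb (1.95), Cdca8 (1.70), Tpx2 (1.61) and Birc5 (1.56), of which Aurkb, Cdca8 and Birc5 encode parts of the complex that Kif20a carries, while its scaffold Incenp was at 0.71. Cenpe, the kinetochore kinesin whose symbol falls outside the rule, was at 2.2 and 5.10 FPKM, a read ratio of 2.32 (1.91 to 2.81). Prc1, the midzone bundler that recruits Kif4, was at 6.40 and 11.9 FPKM, a ratio of 1.85 (1.53 to 2.23). Numa1, which anchors dynein at spindle poles, was the 1 partner below 0, at 58.5 and 42.9 FPKM, and was picked after its value was seen. Of 22 DNA replication genes, 19 were 2-fold higher, against the same 6.55%, with a median of 1.55 and the largest values for Uhrf1 (2.39), Gins1 (2.16), Tk1 (1.99) and Chaf1a (1.94).

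In the cargo and dynein lists no gene was called, which in lists of this size is near the 6.55% higher and 1.95% lower among all genes. None of 18 kinesin light chain and cargo adaptor genes was past 2-fold, with a median of -0.08 and log2 ratios from -0.32 (Madd, an adaptor of Kif1 vesicles) to 0.39 (Kifap3). Arl8a, a lysosome protein, was at -0.24 and Mapk8ip3 at -0.21. None of 20 listed genes of cytoplasmic dynein, the motor that runs in the opposite direction, and its cofactor dynactin was past 2-fold, with a median of -0.02. The largest differences there were Bicd2 (-0.40), Dynll2 (0.31), Dctn5 (-0.26) and Dctn2 (0.19). Centring on T cell genes moved the medians of both lists above 0, to 0.38 and 0.45, beside 0.45 for all genes. Of 12 tubulin genes at 1 FPKM or more, the building blocks of the track, 2 were 2-fold higher and 0 lower, against 6.55% and 1.95% of all genes, and the median was 0.45. They were Tuba1b, at 208 and 441 FPKM, a read ratio of 2.12 (2.03 to 2.21), and Tuba8, at 0.88 and 3.63 FPKM on 11 and 46 reads. Tubb5, at 180 and 291 FPKM (log2 ratio 0.69), and Tuba1c, at 18.4 and 27.7 FPKM (0.56), followed. Tubulin genes are similar in sequence, so their shared-out reads are uncertain.

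**Figure D4:**
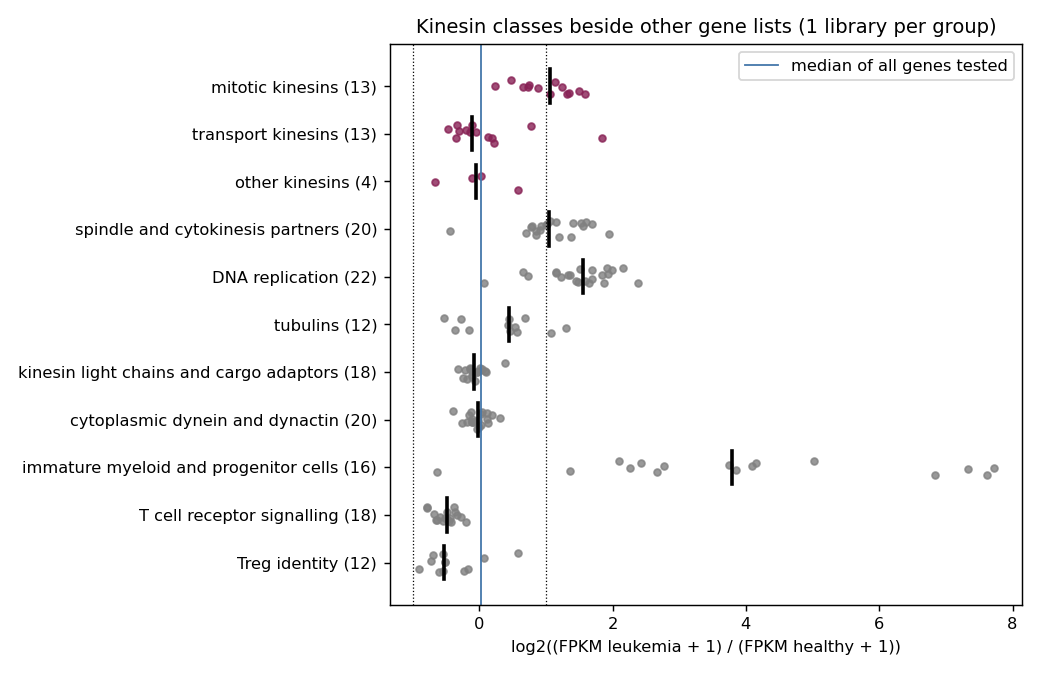
Log2((FPKM leukemia + 1) / (FPKM healthy + 1)) of each gene at 1 FPKM or more, by kinesin class and by list, with the number of genes in brackets, black bars at list medians, the line at the median of all genes tested and dotted lines at 2-fold. Mitotic kinesins (median 1.07) lie with the spindle partners (1.04) and below the immature myeloid genes (3.79), while the sign of the transport kinesin median (-0.10) turns to 0.29 after centring on T cell genes.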

How the data were processed

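Reads were handled upstream with RSEM and Bowtie2 2.2.5, per the submitters' processing notes. The labels and headers name no RSEM version, genome build, annotation release or use of strand. Per the file headers, the authors deposited for each library an expected count per gene (an estimated read number), an FPKM value and a gene length averaged over transcripts. Genes are named by NCBI Gene ID: 21713 IDs matched a symbol in the RefSeq table (assembly GRCm38.p6) by ID, 22 by transcript accession, and 1513 had none. A gene missing from a table was taken as 0. Samples were grouped by the disease state label, with 1 library per group, so no test was made. Expected counts were rounded to whole numbers for exact (Clopper-Pearson) 95% intervals of read ratios (scipy 1.17.1). With 100 reads in each library the interval runs from 0.753 to 1.34. The calls and intervals were run on simulated Poisson counts. These hold counting error only, so the run checks the computation and not the spread between mice or the sharing of reads. TMM scaling used edgeR 4.0.16 (R 4.3.3).

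All mitotic kinesins were named, other kinesins at 5 FPKM or more in either library or 2-fold different, the 4 genes of each pathway list farthest from a log2 ratio of 0, and 8 direct partners. Further kinesins are given so that every member is accounted for. The members, classes and lists were chosen with earlier results of these data known. Roles within the mitotic class, the motifs and the printed promoters were chosen after the values were seen; a narrower set of E2F letters, also searched, matched the same 2 mitotic promoters and was left out.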

Additional observations from a re-analysis of the deposited data

How the results depend on the processing

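No paired analysis was possible because each group held 1 library, and no replicate could be left out. The number of mitotic kinesins called 2-fold higher was 7 to 10 under the alternatives run, namely a pseudocount of 0.1 FPKM, TPM, the median ratio, TMM-scaled CPM, centring on T cell genes, no filter, a 5 FPKM filter, the read ratio with its interval, summing Kifc1 with Kifc5b, and counting Kif2a and Kif24 as mitotic. Leaving out Kif16bos and summing reads over a class were chosen after seeing the data. The mitotic median was 1.37 with a pseudocount of 0.1 FPKM, 1.43 by read ratio, 1.48 centred and 0.89, under 2-fold, with Kif2a and Kif24 counted as mitotic. Transport kinesins called higher were 2 with a pseudocount of 0.1 FPKM, with TMM, centred and by read ratio, where Kifc3 joins Kif17, and 0 with a filter of 5 FPKM, which leaves 6 genes. Other kinesins called higher were 1 (Kif24) with a pseudocount of 0.1 FPKM and by read ratio. Centring moved the medians of transport kinesins to 0.29, adaptors to 0.38 (-0.16 with TPM), partners to 1.44, dynein genes to 0.45, tubulins to 0.93, replication genes to 2.02 and all genes to 0.45. It gave 19 partners and 5 tubulins called higher, against 1 tubulin with a filter of 5 FPKM. All genes called higher were 1915 centred and 590 with that filter, and those called lower 493 with a pseudocount of 0.1 FPKM, 414 with TPM, 151 centred and 135 with that filter. Centring turned the sign of 8 kinesins at 1 FPKM or more, none of them 2-fold different, and TPM and TMM that of Kif2a. Centring multiplied each leukemia FPKM by 1.396, which raises log2 ratios by construction. A smaller pseudocount enlarges the ratios of low genes, and fewer genes enter under the 5 FPKM filter. The cause of other shifts was not tested. Kif14 and Kifc5b passed 2-fold with a pseudocount of 0.1 FPKM, TMM and the read ratio, and Kif20a, Kif20b and Kifc5b when centred. Depth limits members with under 100 reads.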
